A study of Mus musculus with 15 samples.

Results

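Livers of mice given methotrexate (MTX), with or without nitrate in their drinking water, were compared as a single group with livers of control mice. The comparison used all 15 libraries of the series: 10 libraries whose labels name MTX, made up of 5 labelled MTX and 5 labelled MTX+nitrate, against 5 labelled control, over every gene counted. All animals were wild type and whole liver was sampled in each case. MTX animals received 1 intraperitoneal dose of 20 mg/kg and were sampled 24 h after it, and the MTX+nitrate animals had also drunk water with 2 mM nitrate for 5 days, the dose falling on the last of these days. The labels call the control animals only control, and give no strain, sex or age. Nitrate without MTX was not analysed here. Whether each library came from its own mouse is not stated, and the p-values may therefore cover technical spread only.

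Methotrexate is a folate analogue that blocks the recycling of folate and, in its polyglutamated form, thymidylate synthase and enzymes of purine synthesis, and the liver takes it up and can be injured by it. The liver answers inflammatory signals with the acute phase response, in which hepatocytes raise the secretion of proteins such as serum amyloid A and haptoglobin. Many liver genes also follow the time of day, through the circadian clock and through glucocorticoid hormone, and others follow sterol supply or xenobiotic sensing.

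Messenger RNA was read as counts per gene, and levels are in CPM, the count relative to its library total after scaling by the trimmed mean of M values. The totals ran from 17273003 to 19274497 counts in the MTX-treated libraries and from 16663967 to 18626574 in the control libraries. Hepatocyte markers summed to between 93800 and 139000 CPM in MTX-treated libraries and between 102000 and 132000 CPM in control libraries, and all 10 were measured. No member of the 13 cell type marker lists was called by edgeR or limma-voom. Between 1 and 17 members per list were tested, too few to set this apart from the 2.52% of all genes that were called. DESeq2 called 3 hepatocyte, 1 Kupffer cell, 1 stellate, 1 monocyte or dendritic and 1 T or NK cell marker, and between 0 and 6 genes of a list had an unadjusted p under 0.05. Control library 1 had the lowest share of counts in its 10 most abundant genes among the controls (17%, against 19.0% to 19.7% in the other controls), and MTX library 5 had the weakest trend of expression with transcript length of the MTX group (r across genes of -0.00549, against -0.160 to -0.129). Of 9 such library measures, none differed between the 10 and the 5 libraries at an adjusted exact permutation p under 0.05. The lowest was the correlation of expression with GC content, with a mean of 0.0585 in MTX-treated and -0.115 in control libraries (two-sided exact permutation p = 0.013, adjusted p = 0.117). With each MTX group set against control by itself, the lowest values were for the GC correlation in MTX+nitrate (0.031 to 0.199, against -0.234 to 0.00261 in control) and the share of long non-coding RNA counts in MTX (0.378% to 0.43%, against 0.46% to 0.582% in control), both without overlap. Their exact permutation p of 0.00794 is the smallest that 5 against 5 libraries can give, and over the 18 such tests the adjusted p was 0.0715. In MTX the length trend and the ribosomal share followed (exact permutation p = 0.0159 each, adjusted p = 0.0716).

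The MTX-treated livers differed from control in a modest number of genes, led by acute phase proteins, clock genes, glucocorticoid-induced genes and enzymes of cholesterol synthesis. Of 14219 genes tested, 359 were called at an adjusted p under 0.05 (2.52%) in an edgeR quasi-likelihood test that kept separate means for MTX and MTX+nitrate, with 190 genes higher (1.34%) and 169 lower (1.19%). The change was at least 1 on the log2 scale for 55 of the higher and 38 of the lower genes. In 63 genes every MTX-treated library lay above every control library (0.443% of genes tested) and in 46 every one lay below (0.324%). Among the called genes these were 54 higher and 32 lower. The median log2 change of all genes was 0.00591, so higher and lower calls were set around a centre close to 0. With libraries scaled by their totals alone, 127 genes were higher and 220 lower, and the median of all genes was -0.0339.

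The number of calls depended on single libraries. It was 72 without control library 1 and 724 without MTX library 5, with 103, 140, 169 and 178 genes called without control 3, control 5, control 4 and MTX 2. Fitting the 10 MTX-treated libraries with 1 shared mean gave 180 calls. Of the 359 genes, 51 were called in each of the 15 fits that left out 1 library (34 higher and 17 lower), and 40 of these were also called by DESeq2, limma-voom, the fit with 1 shared mean and a fit with trends on length and GC content. The accounts that follow lead with genes called in all 15 such fits, and name the libraries on which the other calls rest. For a call that more than 4 of these fits lost, the number of such fits is given.

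**Figure D1:**
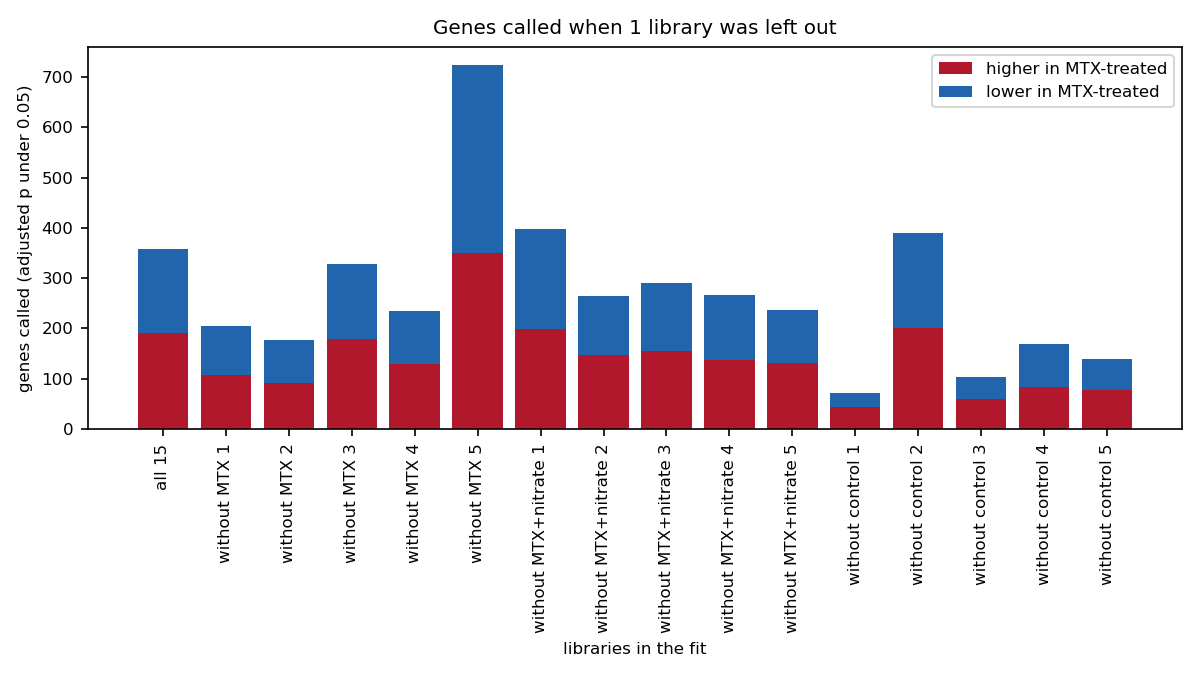
Genes called at an adjusted p under 0.05 (vertical axis, number of genes) in the comparison of MTX-treated with control, with all 15 libraries and with each library left out in turn (horizontal axis), stacked by direction. With all libraries 359 genes were called, against 72 without control 1 and 724 without MTX 5.

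Acute phase genes were higher in the MTX-treated livers and included the largest increases. Of 36 acute phase genes tested, 13 rose and none fell, set against 1.34% of all genes rising. In 10 of the 36 every MTX-treated library lay above every control, beside 0.443% of all genes. The median log2 change of the list was 0.431, compared with 0.00591 over all genes tested. The serum amyloid A genes Saa1 and Saa2, which encode lipoprotein-bound proteins of the acute phase, stand head to head on chromosome 7. Their promoters are printed because the paired genes moved together: RefSeq (GRCm38.p6) gives 250 bases before to 50 bases after each start, on the minus strand at chr7:46742931-46743230 for Saa1 and on the plus strand at chr7:46751583-46751882 for Saa2. In a global alignment 287 positions were identical and 12 mismatched, with 2 gap columns (95.3% identical), and capitals mark the bases at which each differs from the other.
Saa1 promoter: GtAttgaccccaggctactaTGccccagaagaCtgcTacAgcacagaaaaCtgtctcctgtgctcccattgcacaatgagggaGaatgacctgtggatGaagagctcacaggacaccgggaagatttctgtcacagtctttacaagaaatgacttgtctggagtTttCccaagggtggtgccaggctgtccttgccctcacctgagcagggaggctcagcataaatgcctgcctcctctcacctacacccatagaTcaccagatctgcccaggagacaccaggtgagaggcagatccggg
Saa2 promoter: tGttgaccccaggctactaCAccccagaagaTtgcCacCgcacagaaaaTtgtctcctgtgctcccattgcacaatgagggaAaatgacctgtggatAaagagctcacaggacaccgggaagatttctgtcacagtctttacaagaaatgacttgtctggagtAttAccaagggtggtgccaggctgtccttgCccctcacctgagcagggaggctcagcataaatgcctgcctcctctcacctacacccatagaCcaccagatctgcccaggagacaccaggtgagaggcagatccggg
The genes share most of their sequence, so reads may be split between them differently by another counting method, which was not tested.

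Saa1 (chromosome 7, 46740497 to 46742980, minus strand) had 260 CPM at the lowest, 401 at the median and 1912 at the highest in the MTX-treated libraries, against 21.0, 49.6, 28.9, 17.6 and 38.3 CPM in the controls. Every MTX-treated library thus lay above every control, by a wide gap. Its log2 fold change was 4.35 ± 0.47 (SE, adjusted p = 0.000699). Saa2 (chromosome 7, 46751790 to 46754313, plus strand) ran from 89.97 CPM through a median of 225 to 1349 CPM in MTX-treated libraries, against 7.67, 10.9, 5.66, 3.94 and 7.07 CPM in the controls. No control came near the lowest MTX-treated library, and the log2 change of 5.53 ± 0.63 was the largest increase among the genes named here (adjusted p = 0.000699). Lcn2, which encodes the iron-siderophore binding protein lipocalin 2, had 33.8, 113 and 420 CPM as lowest, median and highest in MTX-treated libraries, against 5.84, 9.18, 7.99, 7.31 and 9.29 CPM in control. Its change was 4.01 ± 0.47 on the log2 scale (adjusted p = 0.000699), and its groups did not overlap.

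Haptoglobin (Hp), which binds free haemoglobin, showed that abundant transcripts moved too. It reached 3034, 4209 and 7741 CPM as lowest, median and highest in MTX-treated libraries, against 1644, 1886, 2322, 2245 and 2395 CPM in control libraries (log2 change 1.11 ± 0.14, adjusted p = 0.00165). Orm2, an orosomucoid gene, lay between 18.4 and 100 CPM in MTX-treated libraries and between 3.21 and 7.19 CPM in control (3.06 ± 0.37, adjusted p = 0.000975). Lrg1, a leucine-rich glycoprotein of the acute phase, lay between 516 and 1195 CPM in MTX-treated libraries and between 229 and 325 CPM in control (1.26 ± 0.17, adjusted p = 0.00206). All 6 of these genes were called in each of the 15 fits that left out a library.

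Further acute phase transcripts rose, with calls that single libraries could end. Orm1, the other orosomucoid gene, named after its values were seen, changed by 0.61 ± 0.11 (adjusted p = 0.0157) and was not called without control 1 (0.0544). Hemopexin (Hpx), which binds haem, averaged 4538 ± 1634 CPM in MTX-treated and 2709 ± 440 CPM in control libraries (SD, n = 10 and 5, log2 change 0.70 ± 0.16, adjusted p = 0.0304), a gene that missed the threshold without control 1, 4 or 5 or MTX 2 (adjusted p up to 0.0971). Itih4, a plasma inhibitor heavy chain, changed by 0.57 ± 0.12 (adjusted p = 0.0193) and was not called without control 1 or 3 (up to 0.0666). Fgl1, a hepatocyte-secreted fibrinogen-like protein, changed by 1.22 ± 0.23 (adjusted p = 0.016) and missed the threshold only in the fit without control 3 (adjusted p = 0.0521). Saa3 lay between 3.10 and 27.9 CPM in MTX-treated libraries and between 2.06 and 2.33 CPM in control (2.30 ± 0.52, adjusted p = 0.0293), and it missed the threshold without control 1, 3, 4 or 5 (up to 0.0837). Complement C3 (0.42 ± 0.11, adjusted p = 0.0455) and the fibrinogen chain Fga (0.44 ± 0.10, adjusted p = 0.0321) were among the most abundant called genes, and 12 and 7 of the 15 fits lost them. Without control 1, 7 of the 13 acute phase calls were left, which was the lowest number over the 15 fits.

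The median acute phase increase was larger with MTX alone. The list's median log2 change was 0.296 for MTX+nitrate and 0.55 for MTX over control, comparisons that share the control libraries. Tested directly, 9 of the 36 genes were lower in MTX+nitrate than in MTX, set against 1.94% of all genes, and none was higher. Lcn2 was one of them, with 43.6, 44.8, 126, 106 and 33.8 CPM in MTX+nitrate, against 353, 190, 68.2, 119 and 420 CPM in MTX, a log2 difference of -1.70 (95% interval -2.62 to -0.78, adjusted p = 0.0393). Both groups nevertheless lay above every control for Lcn2. Saa1 (-1.05, adjusted p = 0.162) and Saa2 (-1.48, adjusted p = 0.124) were not called in this contrast, with intervals that reached from -1.96 to -0.14 and from -2.62 to -0.33. The direction was not particular to acute phase genes, since 18 of 82 ribosomal protein and 19 of 76 nuclear respiratory chain genes were also lower in MTX+nitrate. The trend of expression with transcript length ran from r of -0.0412 to 0.136 in MTX+nitrate and from -0.16 to -0.00549 in MTX. Its part in the acute phase difference was not tested. Markers of inflammatory cells had lower estimates with nitrate too. Median log2 changes over the shared controls were -0.98 for MTX+nitrate and 1.52 for MTX over 4 neutrophil markers, and 0.157 and 1.07 over 15 monocyte and dendritic markers. In the direct contrast 2 of the 4 (S100a8 and Mmp9) and 2 of the 15 (Chil3 and Gpnmb) were lower with nitrate, beside 1.94% of all genes. Control libraries reached at most 1.17 CPM for S100a8, 0.779 for Mmp9, 0.835 for Chil3 and 0.39 for Gpnmb. Genes this scarce may pass the expression filter only through libraries where they are high. The neutrophil medians and these counts are therefore no separate evidence of a difference in such cells. The neutrophil markers summed to 2.31 to 5.61 CPM in MTX+nitrate, 1.98 to 27.8 CPM in MTX and 2.52 to 5.88 CPM in control. The part of these cells in the difference was not tested.

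Genes on the lists of inflammatory signalling were called in both directions. Of 21 IL-6 and STAT3 signalling genes tested, Fgl1 rose, and Lifr and Pim1 fell, set against 2.52% of all genes called. Fgl1 encodes a secreted product and is the same call as in the acute phase list. Lifr, a receptor subunit for cytokines of the IL-6 family, averaged 347 ± 81.7 CPM in MTX-treated and 532 ± 151 CPM in control libraries (log2 change -0.63 ± 0.15, adjusted p = 0.0368, lost in 10 of 15 fits). Pim1, a kinase gene induced by STAT factors, changed by -0.95 ± 0.21 (adjusted p = 0.0272, lost without control 1, 3 or 4, up to 0.0737). Of 25 NF-kB and cytokine genes, Il1b alone was called, at 1.16 to 7.46 CPM in MTX-treated libraries and 0.665 to 1.74 CPM in control, with overlap (1.69 ± 0.41, adjusted p = 0.0367, lost in 9 of 15 fits). None of 23 chemokine genes was called by edgeR, DESeq2 or limma-voom, with 5 at an unadjusted p under 0.05, and likewise none of 44 interferon-stimulated genes, with 2. The chemokine list's median log2 change was 0.0169 for MTX+nitrate and 0.39 for MTX over the shared controls. Ccl2, Ccl6, Ccl9, Cxcl1 and Ccr1 were lower in MTX+nitrate than in MTX, 5 of 23 beside 1.94% of all genes. Of 32 chemokine genes listed, 23 passed the expression filter, which scarce genes may pass only through libraries where they are high. These medians and this count are therefore no separate evidence of a difference between the MTX groups. Neutrophil markers summed to 1.98 to 27.8 CPM over the MTX-treated libraries and to 2.52 to 5.88 CPM over the controls, with 4 of 13 genes expressed enough to test. Their defining markers Ly6g and Mpo were at 0 in 2 and 8 of the 15 libraries. The 14 monocyte and dendritic markers tested beside Fn1, which was left out after its share of the sum was seen, summed to 71.5 to 133 CPM in MTX+nitrate, 56.2 to 220 CPM in MTX and 77.1 to 216 CPM in control. Single markers spread more widely in MTX-treated than in control libraries, with Lyz2 at 10.9 to 98.6 CPM against 19.0 to 27.8 CPM, Gpnmb at 0 to 22.2 CPM against 0 to 0.39 CPM and F13a1 at 0 to 10.5 CPM against 0.054 to 0.61 CPM. Kupffer cell markers summed to 458 to 737 CPM in MTX-treated and 505 to 838 CPM in control libraries. The part of such cells in the acute phase result was not tested. In whole-liver RNA, fewer cells of a type and less RNA per cell cannot be told apart.

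**Figure D2:**
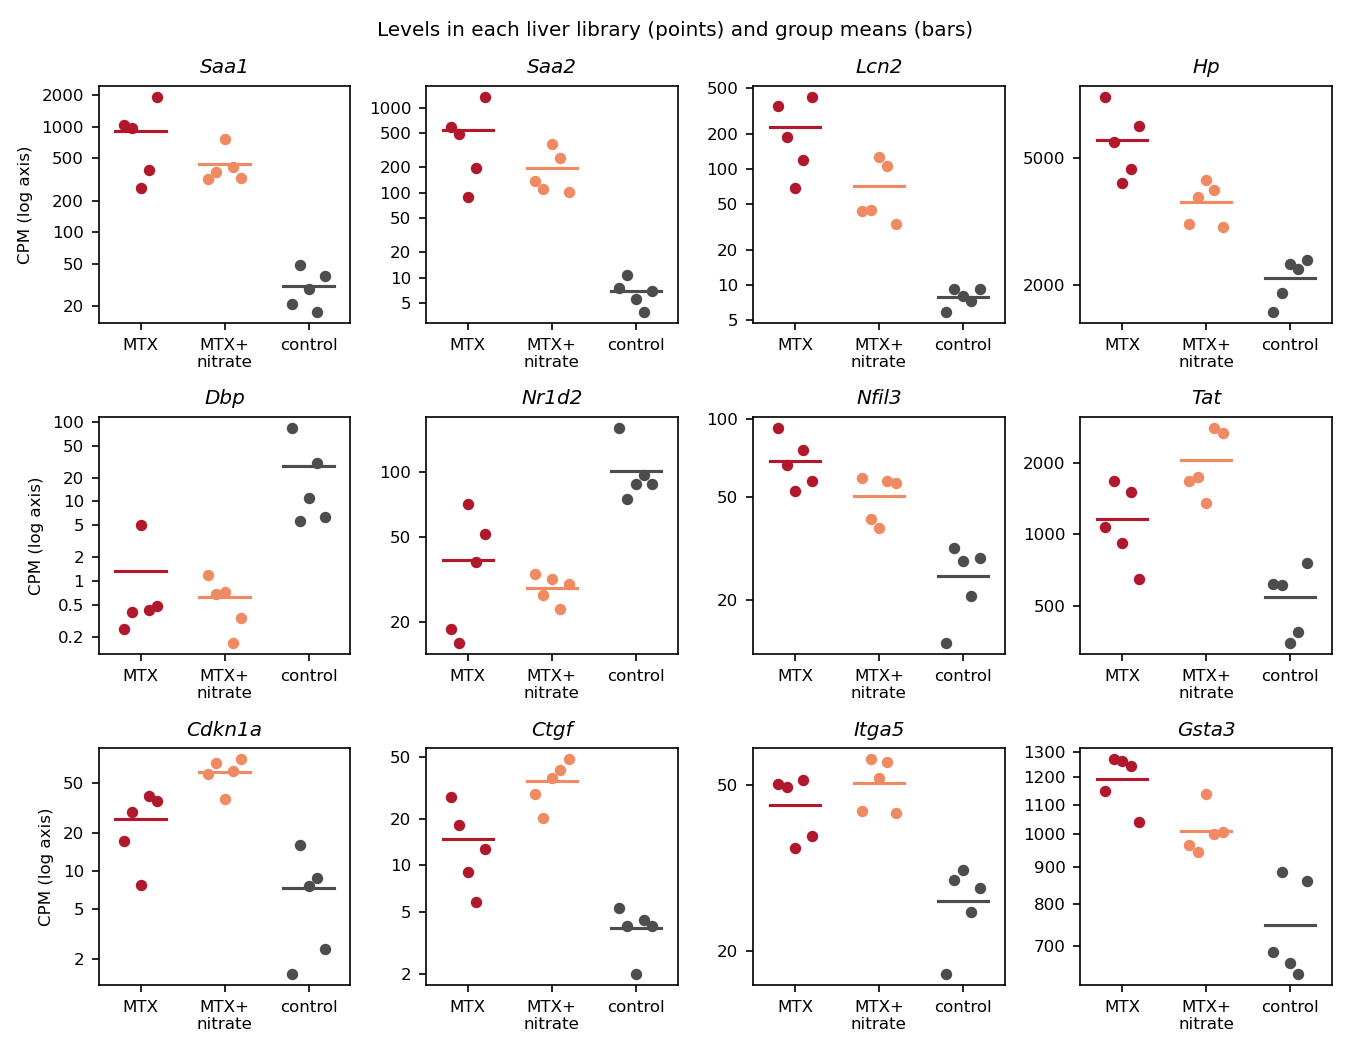
Level of 12 named genes in each library (points, CPM on a log axis), with MTX, MTX+nitrate and control from left to right and the mean of each group as a bar. The 10 MTX-treated libraries lie above all controls for Saa1, Saa2, Lcn2 and Hp and below all controls for Dbp and Nr1d2.

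Clock genes moved in opposite directions, with the PAR bZIP activators and the REV-ERB repressors lower and the repressor Nfil3 higher. Among 15 core clock genes tested 4 were called, with Per3, Nr1d1 and Nr1d2 lower, and among 20 clock output genes Dbp, Tef, Wee1 and Insig2 fell and Nfil3, Noct, Tsc22d3, Tspan4 and Ppard rose. Over all genes 1.19% fell and 1.34% rose. The median log2 changes were 0.00383 for the core and 0.190 for the output list.

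The promoters of Per3 and Noct are printed because they hold the D-box, the site that DBP and TEF activate and that NFIL3 represses. D-boxes were searched as TTATGNAA on both strands in RefSeq promoters of GRCm38.p6 (250 bases before to 50 after the start), and capitals mark the matches, 205 and 158 bases before the start in Per3 (minus strand, chr4:151044616-151044915) and 94 bases before it in Noct (plus strand, chr3:51224197-51224496, where the match is on the opposite strand). The first of the Tef promoters (plus strand, chr15:81802423-81802722) holds the E-box CACGTG, bound by the clock activators, 127 bases before the start, in capitals.
Per3 promoter: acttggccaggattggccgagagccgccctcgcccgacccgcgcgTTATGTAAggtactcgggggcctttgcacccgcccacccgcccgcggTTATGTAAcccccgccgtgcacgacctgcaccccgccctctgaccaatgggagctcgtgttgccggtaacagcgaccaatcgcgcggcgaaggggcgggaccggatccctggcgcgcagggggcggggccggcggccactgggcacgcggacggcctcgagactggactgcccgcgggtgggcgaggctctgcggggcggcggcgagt
Noct promoter: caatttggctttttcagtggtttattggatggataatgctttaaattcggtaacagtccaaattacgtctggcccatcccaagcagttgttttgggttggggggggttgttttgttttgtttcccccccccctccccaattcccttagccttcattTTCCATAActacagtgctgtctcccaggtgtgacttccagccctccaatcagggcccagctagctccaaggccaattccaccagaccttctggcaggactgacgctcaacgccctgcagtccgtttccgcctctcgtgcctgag
Tef promoter: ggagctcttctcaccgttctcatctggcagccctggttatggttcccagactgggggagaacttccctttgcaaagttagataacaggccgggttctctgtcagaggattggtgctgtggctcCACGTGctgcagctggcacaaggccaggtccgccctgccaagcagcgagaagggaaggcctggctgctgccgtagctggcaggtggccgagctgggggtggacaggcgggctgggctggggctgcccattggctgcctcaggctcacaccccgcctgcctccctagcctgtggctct
Of 13 called clock genes, 11 had a promoter in the table (17 promoters), and 2 of these promoters held a D-box, compared with 3.38% of all 32851 promoters, while 3 of the 17 held an E-box, compared with 7.15%. A match is a description of the letters and not evidence of binding.

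Dbp, which encodes the D-box activator DBP, had the largest decrease of all genes named. It had 0.165, 0.457 and 5.07 CPM as lowest, median and highest in MTX-treated libraries, against 84.5, 5.73, 11.0, 30.9 and 6.35 CPM in the controls. MTX library 3 was the single MTX-treated library above 2 CPM, and the groups still did not overlap. The log2 change was -4.90 ± 0.68 (adjusted p = 0.00232), and the call held in all 15 fits. Dbp overlaps 737 bases of the more abundant Sphk2 on the other strand, and with the counting strand unknown their reads may not be separable.

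Nr1d2, a REV-ERB nuclear receptor that represses clock transcription, lay at 15.9, 30.8 and 70.6 CPM as lowest, median and highest in MTX-treated libraries, against 160, 74.6, 87.7, 96.2 and 87.8 CPM in control (log2 change -1.60 ± 0.26, adjusted p = 0.0076). Its call held in all 15 fits. Its relative Nr1d1 had 11.1 to 143 CPM in MTX-treated libraries and 96.8 to 174 CPM in control, so that MTX library 3 overlapped the controls (-1.86 ± 0.43, adjusted p = 0.0336, lost in 7 of 15 fits). Per3, a period protein of the clock, had 1.38, 3.43 and 5.82 CPM in MTX-treated libraries, against 38.9, 5.56, 8.21, 9.41 and 6.65 CPM in control, where MTX library 3 was above control 2 (-2.09 ± 0.40, adjusted p = 0.016). Tef, the PAR bZIP relative of Dbp, averaged 32.9 ± 13.0 CPM in MTX-treated libraries and 91.7 ± 51.8 CPM in control (-1.48 ± 0.29, adjusted p = 0.0182). Control library 1 was the highest control for Dbp, Per3, Nr1d2 and Tef, and without it Per3 (adjusted p = 0.0642) and Tef (0.0688) were not called. Per3 shares 41014 bases with Camta1 on the same strand and Nr1d1 1075 bases with Thra on the other, so their reads may not be separable.

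Nfil3, the D-box repressor E4BP4, was higher. It ran from 38.1 CPM through a median of 57.8 to 92.8 CPM in MTX-treated libraries, against 13.7, 31.9, 28.3, 20.9 and 29.2 CPM in control, without overlap (1.26 ± 0.19, adjusted p = 0.00473, called in all 15 fits). Ppard, a fatty-acid sensing nuclear receptor, changed by 1.82 ± 0.40 (adjusted p = 0.0269), lost without control 1, 3, 4 or 5 (up to 0.0865), and the checkpoint kinase gene Wee1 by -0.98 ± 0.23 (adjusted p = 0.0327, lost in 8 of 15 fits). Insig2, an anchor of the sterol sensor SCAP, changed by -0.43 ± 0.09 (adjusted p = 0.0227, lost without control 1, 3 or 4, up to 0.0642), and the tetraspanin gene Tspan4 by 0.48 ± 0.10 (adjusted p = 0.025, lost without control 1, 3, 4 or 5, up to 0.0709). Without control 1, 1 of the 4 core calls and 4 of the 9 output calls were left. Tef, Wee1, Insig2, Tspan4 and Ppard were named after their values were seen. The time of day at sampling is not given in the sources used here, and its part in the clock result was not tested.

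Noct and Per1 behaved differently in the 2 MTX groups. Noct, a rhythmic phosphatase for nicotinamide cofactors, had 20.0, 30.5, 21.4, 39.3 and 28.5 CPM in MTX+nitrate, against 3.02, 7.21, 2.97, 4.49 and 1.09 CPM in MTX (difference 2.89, 95% interval 2.07 to 3.71, adjusted p = 0.00304). Control libraries had 4.38, 1.95, 1.16, 1.31 and 2.70 CPM, so the pooled increase of 2.15 ± 0.37 (adjusted p = 0.0104) came with overlap between MTX and control. Per1, a period gene that glucocorticoids induce, was not called in the pooled comparison (0.77 ± 0.43, adjusted p = 0.343) and differed by 2.68 between the groups (1.63 to 3.74, adjusted p = 0.0151).

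Glucocorticoid-induced genes were higher in the MTX-treated livers. Of 25 tested, 6 rose and none fell, beside 1.34% and 1.19% of all genes. The list's median log2 change was 0.771, beside 0.00591 over all genes tested. One of the 6 was Lcn2, already counted among the acute phase calls and the only gene of the list without overlap between the groups. Tsc22d3, which encodes the glucocorticoid-induced leucine zipper GILZ, had 48.2, 139 and 232 CPM as lowest, median and highest in MTX-treated libraries, against 38.5, 48.8, 28.5, 37.6 and 51.0 CPM in control (1.59 ± 0.22, adjusted p = 0.00216). MTX library 5, the lowest, lay within the control range. Tat, tyrosine aminotransferase, an enzyme of amino acid breakdown in fasting, had 645, 1588 and 2810 CPM in MTX-treated libraries, against 615, 608, 347, 387 and 755 CPM in control (1.51 ± 0.25, adjusted p = 0.0076). Cdkn1a, the p21 inhibitor of cell division and also a p53 target, had 7.74, 38.4 and 78.0 CPM in MTX-treated libraries, against 1.51, 16.2, 7.54, 8.83 and 2.40 CPM in control (2.45 ± 0.46, adjusted p = 0.016). Single MTX libraries overlapped the controls for both genes, MTX 5 for Tat and MTX 3 for Cdkn1a. These 3 calls held in all 15 fits.

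The pooled increase of Sgk1 came from the MTX+nitrate libraries. This hormone-induced kinase gene had 44.5, 47.2, 31.4, 45.2 and 41.0 CPM in MTX+nitrate, against 11.7, 17.2, 12.2, 10.9 and 16.5 CPM in MTX, while the controls had 10.8 to 17.5 CPM. The MTX libraries overlapped control, and the pooled call (0.67 ± 0.14, adjusted p = 0.0223) was lost without control 1 or 3 (up to 0.069). The difference of 1.61 between the MTX groups had an interval of 1.28 to 1.95 (adjusted p = 9.87e-05). Ddit4, an inhibitor of mTORC1 signalling, changed by 1.68 ± 0.35 (adjusted p = 0.0227, lost without control 1, 3, 4 or 5, up to 0.0737). Within the list, 4 genes were higher and 3 lower in MTX+nitrate than in MTX, set against 2.37% and 1.94% of all genes. The number called was 4 without control 1.

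Genes of fasting and glycogen metabolism moved in part. Of 26 gluconeogenesis and fasting genes, Tat, Irs2 and Sik1 rose and none fell, beside 1.34% and 1.19% of all genes. Irs2, an adaptor of the insulin receptor, averaged 92.6 ± 32.2 CPM in MTX-treated and 48.7 ± 9.61 CPM in control libraries (0.93 ± 0.23, adjusted p = 0.0397, lost in 8 of 15 fits). Sik1, a cAMP-induced kinase, averaged 38.2 ± 38.9 CPM in MTX-treated and 10.8 ± 1.54 CPM in control libraries (1.52 ± 0.35, adjusted p = 0.0337, lost in 6 of 15 fits), with MTX+nitrate higher than MTX by 1.93 (1.11 to 2.74, adjusted p = 0.0191). Ppp1r3c, which targets protein phosphatase 1 to glycogen, had 71.8 to 163 CPM in MTX-treated libraries and 38.9 to 86.2 CPM in control (1.13 ± 0.21, adjusted p = 0.0144, called in all 15 fits). MTX library 5 and MTX+nitrate library 5 were below control 5. Its difference between MTX+nitrate and MTX was 0.08, with an interval of -0.40 to 0.56. Of 33 fatty acid oxidation genes, Cpt1a alone was called, the carnitine palmitoyltransferase that admits fatty acids to mitochondria, and it was lower (-0.67 ± 0.16, adjusted p = 0.0378, lost in 11 of 15 fits).

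In the arrestin-domain and growth-arrest list, Klf15 and Ddit4 rose and Arrdc3 and Sesn3 fell among 13 tested. Over all genes 1.34% rose and 1.19% fell. Sesn3, a sestrin that restrains mTORC1, had 53.5, 70.3 and 85.3 CPM as lowest, median and highest in MTX-treated libraries, against 103, 125, 94.1, 98.8 and 91.2 CPM in control, without overlap (-0.54 ± 0.10, adjusted p = 0.016, called in all 15 fits). Arrdc3, an arrestin-domain adaptor for receptor degradation, had 68.0, 24.3, 85.0, 92.1 and 58.9 CPM in MTX+nitrate and 277, 86.4, 629, 511 and 323 CPM in MTX. The controls had 659, 453, 578, 671 and 482 CPM, so MTX libraries 3 and 4 overlapped them. The pooled change was -1.88 ± 0.32 (adjusted p = 0.0104, called in all 15 fits), and the MTX groups differed by -2.48 (-3.34 to -1.61, adjusted p = 0.00828). Klf15, a zinc finger factor of amino acid metabolism, changed by 0.66 ± 0.15 (adjusted p = 0.0346, lost in 10 of 15 fits).

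**Figure D3:**
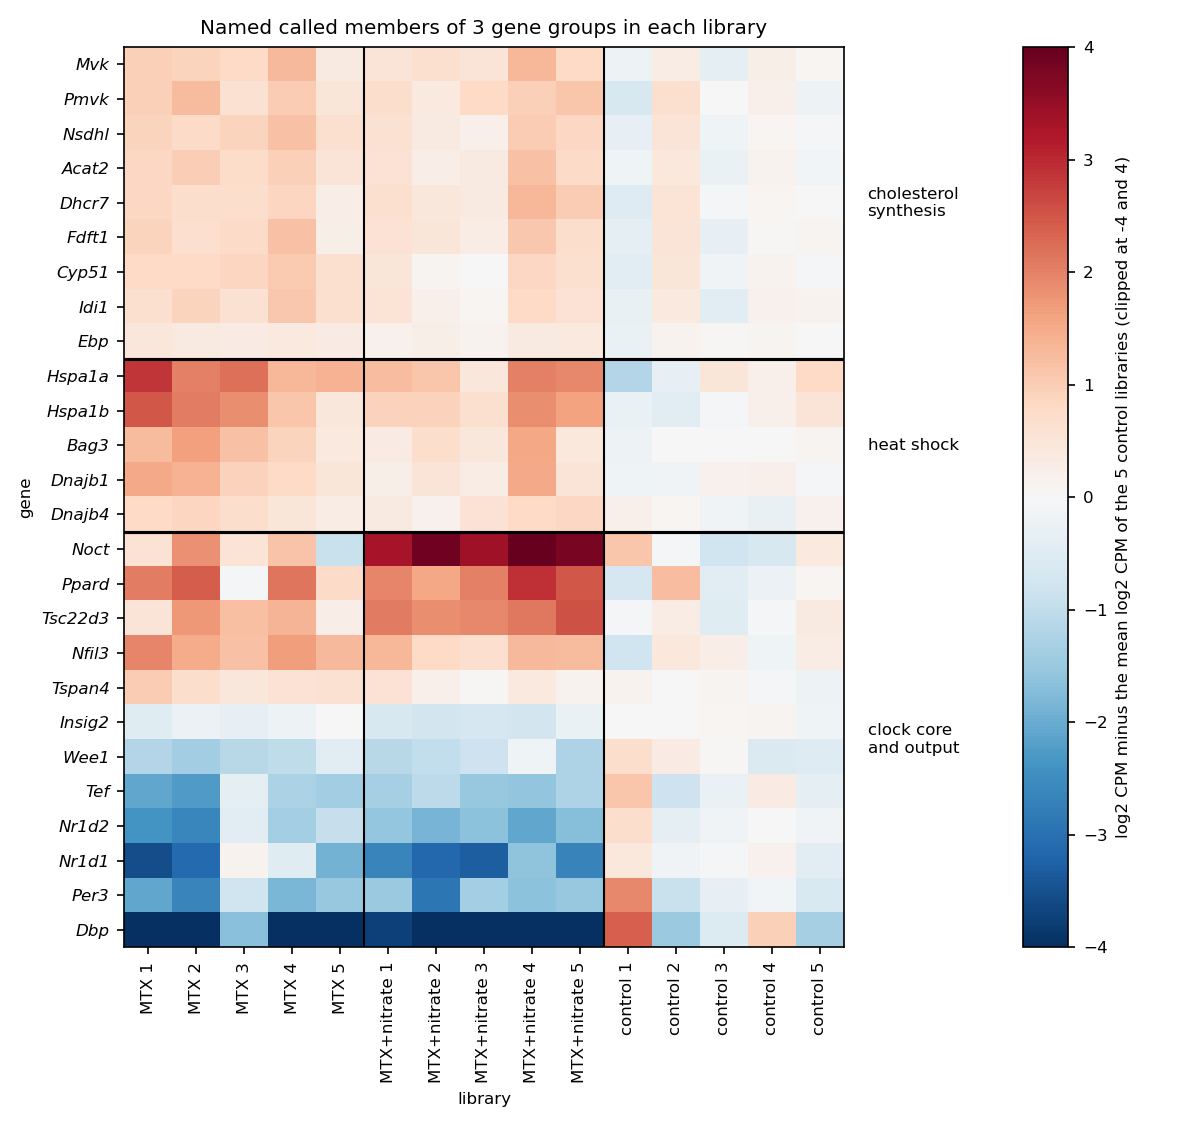
Named called genes of cholesterol synthesis, heat shock and the clock lists (rows) in each library (columns, MTX then MTX+nitrate then control), coloured by log2 CPM minus the mean log2 CPM of the 5 controls. Cholesterol genes are higher in most MTX-treated libraries, control 2 lies above the other controls for most of them, and Dbp is low in every MTX-treated library.

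Enzymes of cholesterol synthesis were higher together. No gene of the list was called between the MTX groups, but the list is too small to set this apart from the 4.31% of all genes. Of 26 genes tested, 11 rose and none fell, beside 1.34% and 1.19% of all genes. The median log2 change was 0.627, beside 0.00591 over all genes tested, and 24 of the 26 had a positive estimate. The median was 0.601 for MTX+nitrate and 0.716 for MTX over the shared controls. For 25 of the 26 the whole 95% interval of the difference between the MTX groups lay within 1 on the log2 scale, beside 77.3% of all genes.

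Mvk, mevalonate kinase, had 27.2, 36.8 and 53.3 CPM in MTX-treated libraries, against 18.2, 25.7, 16.3, 24.8 and 22.0 CPM in control, without overlap (0.82 ± 0.16, adjusted p = 0.0186). Acat2, an acetyl-CoA acetyltransferase at the start of the pathway, lay between 75.2 and 140 CPM in MTX-treated libraries and between 52.0 and 82.6 CPM in control, with overlap (0.72 ± 0.14, adjusted p = 0.0193). Nsdhl, a sterol dehydrogenase, changed by 0.73 ± 0.15 (adjusted p = 0.0198).

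Along the rest of the pathway the called genes included the kinase Pmvk (0.79), the isomerase Idi1 (0.59), squalene synthase Fdft1 (0.68), the demethylase Cyp51 (0.61), the isomerase Ebp (0.31) and the reductase Dhcr7 (0.70), all as log2 changes. Their adjusted p-values lay between 0.0304 for Pmvk and 0.043 for Cyp51, and these 6 were named after their values were seen. On the other strand Fdft1 shares 774 bases with the more abundant Ctsb, and Cyp51 166 bases with Akap9. Mvk was lost without control 1 or 3, Acat2 and Nsdhl without control 1, 3 or 5, and these 6 in 6 to 11 of the 15 fits. Without control 1 none of the 11 genes was called, with adjusted p-values from 0.065 for Mvk to 0.134 for Cyp51 among those named, while 17 genes of the list were called without control 2. Scaling by library totals alone left 5 calls. Of 25 lipogenesis genes, none was called by edgeR, 3 by DESeq2 and 1 by limma-voom, with 7 at an unadjusted p under 0.05.

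Heat shock genes were higher as a small group. Of 24 tested, Hspa1a, Hspa1b, Dnajb1, Dnajb4 and Bag3 rose and none fell, beside 1.34% and 1.19% of all genes. Hspa1b, an inducible HSP70 chaperone, had 10.7, 20.3 and 44.1 CPM in MTX-treated libraries, against 6.54, 5.84, 7.60, 8.99 and 11.1 CPM in control, where MTX library 5 was below control 5 (1.47 ± 0.30, adjusted p = 0.0193). Hspa1a, its near-identical neighbour, had 4.32 to 22.9 CPM in MTX-treated libraries and 1.41 to 5.39 CPM in control, with MTX+nitrate library 3 below controls 3 and 5 (1.62 ± 0.34, adjusted p = 0.0225). Their promoters were 98.7% identical, and reads may be split between the copies. Bag3, a co-chaperone of HSP70, had 23.2 to 57.5 CPM in MTX-treated libraries and 16.2 to 20.1 CPM in control, without overlap (0.94 ± 0.20, adjusted p = 0.025). The HSP40 co-chaperones changed by 0.59 ± 0.13 for Dnajb4 (adjusted p = 0.0246) and 0.88 ± 0.21 for Dnajb1 (adjusted p = 0.0353, named after its values were seen). Without control 1 none of the 5 was called, with adjusted p-values from 0.053 to 0.1.

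Of other stress programmes at most 1 gene per list was called, too few to set apart from the 2.52% of all genes. Atf4, the transcription factor of the integrated stress response, had 71.2 to 104 CPM in MTX-treated libraries and 55.6 to 64.6 CPM in control, without overlap (0.49 ± 0.09, adjusted p = 0.016, lost only without control 1, where the adjusted p was 0.057). It was the single call among 34 ATF4 response genes. Of 27 endoplasmic reticulum folding genes Creld2 alone was called, lower (-1.17 ± 0.30, adjusted p = 0.0459, lost in 11 of 15 fits). Cdkn1a was the single call of 30 p53 targets, Endog, a mitochondrial nuclease, of 36 apoptosis regulators (0.38 ± 0.09, adjusted p = 0.0367, lost in 11 of 15 fits), and Top2a, the topoisomerase of dividing cells, of 32 cell cycle genes (-1.11 ± 0.27, adjusted p = 0.0395, lost in 11 of 15 fits). No NRF2 target of 29 was called by edgeR or limma-voom and 4 by DESeq2, with 6 at an unadjusted p under 0.05. Of 29 oxidant defence genes none was called by edgeR or limma-voom and 1 by DESeq2, with 5 at an unadjusted p under 0.05. In the direct contrast, 10 of the 29 oxidant defence genes were lower in MTX+nitrate than in MTX, beside 1.94% of all genes tested. The trend of expression with transcript length ran from r of -0.0412 to 0.136 in MTX+nitrate and from -0.16 to -0.00549 in MTX. Its part in this difference was not tested.

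Genes of MTX action and of folate and nucleotide metabolism had 1 or 2 calls per list, too few to set apart from the 2.52% of all genes called. Tyms, thymidylate synthase and a target of MTX, averaged 6.12 ± 1.54 CPM in MTX-treated libraries and 5.11 ± 1.33 CPM in control (0.24 ± 0.16, adjusted p = 0.455). Fpgs, which adds glutamate residues to folates and MTX, had a log2 estimate of 0.27 ± 0.12 (adjusted p = 0.214), and Slc19a1, the reduced folate carrier, of -0.09 ± 0.12 (adjusted p = 0.721). Slc19a1 shares 8825 bases with the far more abundant Col18a1 on the other strand, so its counts are uncertain. Of 19 genes of MTX handling and 33 folate enzymes, 1 on each list was called. Of 42 purine and pyrimidine genes, the nucleotidase Nt5c2 (0.36 ± 0.08, adjusted p = 0.0336) and the phosphorylase Pnp (0.35 ± 0.09, adjusted p = 0.0403) rose, lost in 7 and 11 of 15 fits.

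Drug-metabolising enzymes changed gene by gene. Ces1d, a hepatic carboxylesterase, had 690, 730 and 914 CPM in MTX-treated libraries, against 375, 544, 446, 569 and 462 CPM in control (0.65 ± 0.09, adjusted p = 0.00238). Gsta3, a glutathione S-transferase, had 945, 1090 and 1274 CPM in MTX-treated libraries, against 687, 886, 664, 639 and 863 CPM in control (0.56 ± 0.09, adjusted p = 0.00752). Neither gene overlapped between the groups, and both were called in all 15 fits. They were the 2 genes higher among 49 phase II enzymes, of which Ces2c, another carboxylesterase (-1.08 ± 0.23, adjusted p = 0.0235, lost without control 1 or 3, up to 0.082), and Gstt2 (-0.45 ± 0.12, adjusted p = 0.0485, lost in 12 of 15 fits) were lower. These 2 higher and 2 lower calls among 49 are too few to set apart from the 1.34% and 1.19% of all genes. The carboxylesterases and transferases belong to families of similar sequence, where reads may be split.

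Among 49 cytochrome P450 genes, Cyp2c29 rose and Cyp3a25 and Cyp3a59 fell, too few to set apart from the 1.34% and 1.19% of all genes. Cyp2c29, a xenobiotic-induced P450, had 2146, 2125, 2280, 3395 and 2206 CPM in MTX+nitrate and 3350, 4387, 4514, 4752 and 3597 CPM in MTX, while the controls had 2334, 1551, 1323, 1461 and 2433 CPM. MTX+nitrate overlapped control. The pooled change was 0.80 ± 0.16 (adjusted p = 0.0193, lost without control 3 or 4, up to 0.0558), and the MTX groups differed by -0.76 (-1.14 to -0.38, adjusted p = 0.0305). Alas1, the first enzyme of haem synthesis, had 47.2 to 359 CPM in MTX-treated libraries and 21.2 to 85.7 CPM in control (2.06 ± 0.43, adjusted p = 0.0227, lost without control 3, 4 or 5, up to 0.0627). Cyp3a25 (-0.49 ± 0.12, adjusted p = 0.0367) and Cyp3a59 (-0.65 ± 0.16, adjusted p = 0.0455) were lost in 9 and 11 of 15 fits. Cyp7a1, the hydroxylase that starts bile acid production from cholesterol, was called in the pooled comparison (1.11 ± 0.28, adjusted p = 0.0446, lost in 13 of 15 fits) through MTX+nitrate, at 221, 124, 158, 109 and 107 CPM, since MTX had 26.5 to 42.0 CPM and control 14.2 to 54.7 CPM.

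Single matricellular and integrin genes were higher, in lists of which most members were not called. Ctgf, a secreted target of YAP and TGF-beta signalling, had 5.79, 24.0 and 48.4 CPM as lowest, median and highest in MTX-treated libraries, against 5.30, 4.06, 2.00, 4.47 and 4.07 CPM in control (2.51 ± 0.34, adjusted p = 0.00216). Thbs1, thrombospondin 1, had 4.43, 11.4 and 44.1 CPM in MTX-treated libraries, against 2.22, 2.95, 2.94, 1.37 and 1.74 CPM in control (2.63 ± 0.47, adjusted p = 0.0117). Itga5, the fibronectin receptor subunit, had 35.2, 49.9 and 57.8 CPM in MTX-treated libraries, against 17.6, 29.6, 31.2, 24.8 and 28.3 CPM in control (0.86 ± 0.14, adjusted p = 0.00728). In all 3 the groups did not overlap, and all 3 calls held in the 15 fits.

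Ctgf, Thbs1 and Skil, a SMAD corepressor (0.76 ± 0.15, adjusted p = 0.0186, lost only without control 3, adjusted p = 0.0556), were the calls among 31 YAP and TGF-beta genes, which had a median log2 change of 0.245. Over all genes 1.34% rose and the median was 0.00591. Ctgf was higher in MTX+nitrate than in MTX by 1.25 (0.54 to 1.96, adjusted p = 0.0462) and Skil by 0.76 (0.40 to 1.11, adjusted p = 0.025). Of 40 collagen and matrix genes, Itga5 and vitronectin (Vtn, 0.30 ± 0.08, adjusted p = 0.0485, lost in 12 of 15 fits) rose and no collagen was called. Stellate and fibroblast markers summed to 729 to 1200 CPM in MTX-treated libraries and 771 to 1250 CPM in control, and their part in this result was not tested.

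Wnt signalling is named in the study's title, and 2.52% of all genes were called, and the 0 and 2 calls in its lists are too few to set apart from that share. None of 21 Wnt targets was called by edgeR or limma-voom and 1 by DESeq2, with 6 at an unadjusted p under 0.05. Axin2, a feedback inhibitor that the pathway induces, averaged 7.49 ± 2.83 CPM in MTX-treated libraries and 8.98 ± 3.48 CPM in control (-0.32 ± 0.21, adjusted p = 0.436). Ctnnb1, beta-catenin, had 237 to 262 CPM in MTX-treated libraries and 223 to 263 CPM in control (0.06 ± 0.06, adjusted p = 0.617). Of 39 pathway components, the nuclear cofactor Pygo2 rose (0.34 ± 0.09, adjusted p = 0.0485, lost in 12 of 15 fits) and the receptor Fzd6 fell (-0.84 ± 0.18, adjusted p = 0.0255, lost without control 3 or 4, up to 0.0675). Fzd6 had 12.9, 8.96, 7.66, 5.94 and 8.35 CPM in MTX+nitrate and 2.90, 3.75, 5.30, 3.69 and 5.81 CPM in MTX, against 7.89, 13.0, 11.6, 12.9 and 9.77 CPM in control. All 5 MTX libraries and MTX+nitrate libraries 3 and 4 lay below every control, and MTX+nitrate was higher than MTX by 1.03 (0.56 to 1.504, adjusted p = 0.0245). Spp1, osteopontin, was not called in the pooled comparison (0.71 ± 0.28, adjusted p = 0.171) and had 35.0 to 39.2 CPM in MTX+nitrate, 42.3 to 251 CPM in MTX and 29.8 to 58.2 CPM in control.

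Decreases without overlap outside the clock included zinc finger genes of low abundance. Zfp941, a zinc finger gene, had 0.495, 0.804 and 1.46 CPM as lowest, median and highest in MTX-treated libraries, against 2.49, 3.73, 3.27, 2.52 and 2.64 CPM in control (-1.70 ± 0.24, adjusted p = 0.00243). Zfp455 had 0.508 to 1.63 CPM in MTX-treated libraries and 1.74 to 2.22 CPM in control (-1.19 ± 0.22, adjusted p = 0.0144). Tns2, a tensin of focal adhesions, was more abundant, with 29.9, 40.6 and 47.5 CPM in MTX-treated libraries, against 128, 52.5, 79.3, 75.8 and 58.6 CPM in control (-0.99 ± 0.16, adjusted p = 0.00752). None of the 3 overlapped, and each was called in all 15 fits.

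Dyrk2, a kinase gene, changed by -0.65 ± 0.13 (adjusted p = 0.0181, lost only without control 1, adjusted p = 0.0573), and Irgm2, an immunity-related GTPase gene, by -0.89 ± 0.18 (adjusted p = 0.0206, lost without control 1, 3 or 5, up to 0.0651). Irgm2 shares 7974 bases with Igtp on the same strand. The zinc finger genes Zfp867 (-0.86) and Zfp438 (-0.92) and the unnamed transcripts Gm31717 (-1.36), Gm26684 (-0.996) and B230206L02Rik (-0.96) completed the decreases named for their size, and none of these 5 was called without control 1. Gm26684 shares 823 bases with the more abundant Enpp2 on the other strand. The median gene length in the deposited table was 6488 bases for the lower and 3042 bases for the higher genes, against 4053 bases over all genes tested. A fit with trends on length and GC content called 260 genes, and 212 of them were among the 359.

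Whether the response depended on nitrate was examined gene by gene. The called genes were chosen on the average of the MTX groups over shared controls, so their direction in each group is no separate evidence. Over those controls MTX+nitrate by itself had 342 calls (2.41% of genes tested) and MTX by itself 521 (3.66%). Between MTX+nitrate and MTX 49 were called (13.6%, against 4.31% of all genes tested). For 253 others (70.5%) there was no call and the whole 95% interval of the difference lay within 1 on the log2 scale, a share near that of all genes (74.4%, or 77.3% with called genes counted as well). For the remaining 57 the interval reached past 1 and no statement on likeness can be made. Among the 190 higher genes 20 were higher with nitrate and 14 lower, and among the 169 lower genes 11 were higher with nitrate and 4 lower.

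Among calls of at least 1 on the log2 scale, the difference was bounded tightly in several genes, among them Ppp1r3c, described above. Prmt2, an arginine methyltransferase gene, differed by 0.05 (-0.45 to 0.55) with a pooled change of 1.04 ± 0.22 (adjusted p = 0.0235), and Isyna1, inositol-phosphate synthase, by -0.30 (-0.73 to 0.13) with a pooled change of 1.02 ± 0.19 (adjusted p = 0.0144). Tubb4b, a beta-tubulin gene, differed by -0.15 (-0.76 to 0.46). Among decreases, tissue factor F3 differed by 0.01 (-0.55 to 0.58), Ces2c by -0.08 (-0.67 to 0.51), Zfp941 by 0.03 (-0.63 to 0.68) and the phosphodiesterase gene Pde4d by -0.15 (-0.74 to 0.44). Isyna1 and Zfp941 were called in all 15 fits, while Prmt2 and F3 were lost without 3 controls each, Tubb4b without 4 and Pde4d without 2 (adjusted p up to 0.0561, 0.0778, 0.0737 and 0.0666).

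**Figure D4:**
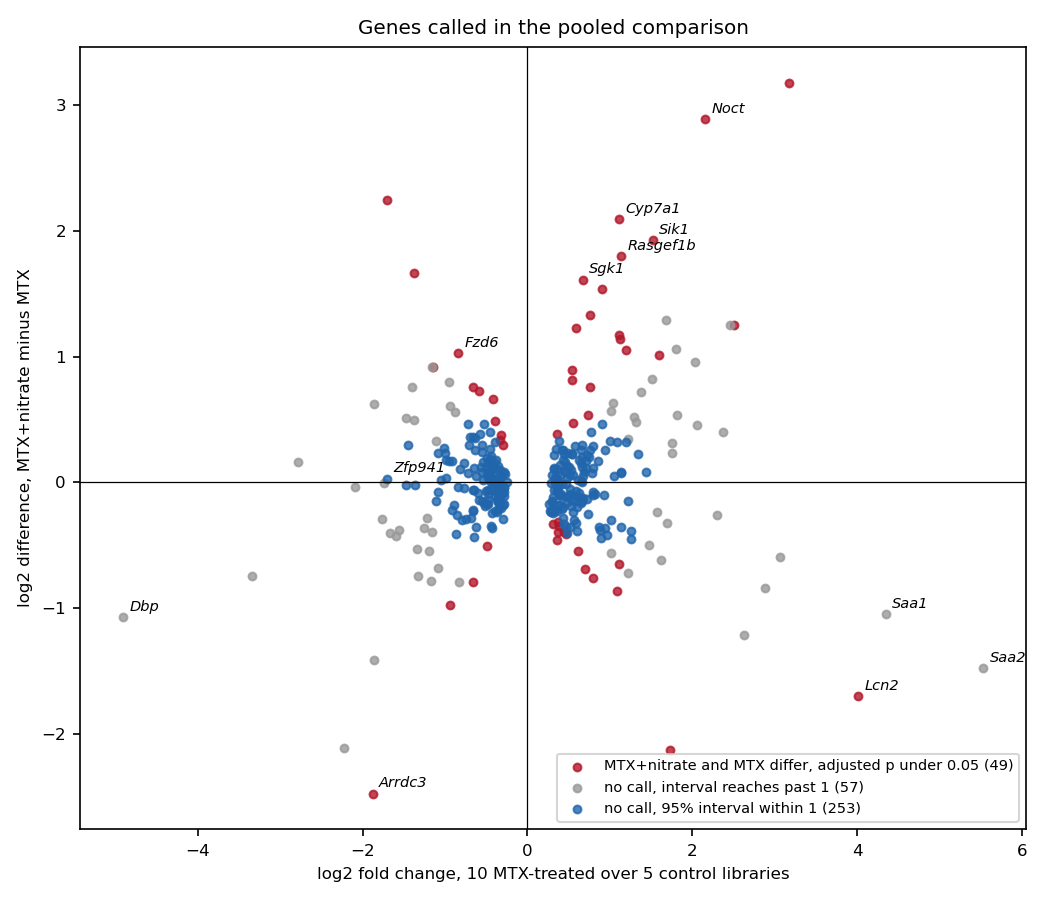
Pooled log2 fold change of the 359 called genes (horizontal axis, MTX-treated over control) against the log2 difference MTX+nitrate minus MTX (vertical axis). Red marks the 49 genes called in that difference, blue the 253 with an interval within 1 and grey the 57 others.

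At the other end, the pooled change was carried by 1 of the MTX groups. Rasgef1b, a guanine nucleotide exchange factor gene, had 37.1, 69.2, 35.8, 32.2 and 47.9 CPM in MTX+nitrate, against 13.1, 14.7, 10.1, 13.1 and 12.8 CPM in MTX and 9.70 to 11.9 CPM in control (pooled 1.14 ± 0.16, adjusted p = 0.00232). It was called in all 15 fits and differed by 1.80 between the MTX groups (1.43 to 2.17, adjusted p = 9.87e-05). Tnfrsf1b, a TNF receptor, had 40.1 to 78.3 CPM in MTX+nitrate, against 22.5 to 28.4 CPM in MTX and 23.5 to 27.9 CPM in control. MTX and control overlapped (pooled 0.59 ± 0.14, adjusted p = 0.0326, lost in 6 of 15 fits). Other genes differed through their decrease, among them the transcription factor genes Sp4 and Pou2f1 and the adaptor gene Plekha6. Sp4 had 6.93 to 10.2 CPM in MTX+nitrate, against 4.49 to 6.29 CPM in MTX, while control had 8.71 to 12.5 CPM (pooled -0.66 ± 0.13, adjusted p = 0.016, lost only without control 1, 0.0544). MTX+nitrate was higher than MTX by 0.76 for Sp4 (adjusted p = 0.0191), 0.73 for Pou2f1 (adjusted p = 0.022) and 0.66 for Plekha6 (adjusted p = 0.0103). The pooled calls were lost without control 3 or 5 for Pou2f1 (up to 0.0724) and in 8 of 15 fits for Plekha6.

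Pooling also called 26 genes that neither MTX group reached alone, 10 of them higher. Of the 5 with the lowest p, Rps3a3 and Pctp were high in single control libraries. Rps3a3 had 34.4 CPM in control 1 and 0.445 to 1.16 CPM in the other controls, against 0.282 to 1.75 CPM in MTX-treated libraries (-3.34 ± 0.80, adjusted p = 0.0367), and without control 1 its adjusted p was 0.92. Rps3a3 lies within Pde4d on the same strand. Pctp, a phosphatidylcholine transfer protein, had 15.8 and 12.9 CPM in controls 2 and 3 and 0.659 to 1.73 CPM in the other controls, against 0.0564 to 1.72 CPM in MTX-treated libraries (-2.79 ± 0.64, adjusted p = 0.0315, lost without control 2 or 3 or MTX 1 or 2, up to 0.0966). Mtnr1a, a melatonin receptor gene, had 0.165 to 1.36 CPM in MTX-treated libraries and 1.02 to 3.55 CPM in control, with overlap (-1.74 ± 0.40, adjusted p = 0.0318, lost in 8 of 15 fits). Mga (-0.43 ± 0.10) and S100pbp (-0.35 ± 0.08) were lost in 9 and 11 of 15 fits.

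Housekeeping and zonation lists completed the account. None of 82 ribosomal protein genes was called by edgeR or limma-voom and 7 by DESeq2, while 40 had an unadjusted p under 0.05, 79 a positive estimate, and the median was 0.221. It was 0.0308 for MTX+nitrate and 0.398 for MTX, and 18 of the 82 were lower in MTX+nitrate than in MTX, beside 1.94% of all genes. The part of the trend with transcript length in this difference was not tested. Of 17 sinusoidal endothelial markers 6 were higher in MTX+nitrate than in MTX, beside 2.37% of all genes. Neither the part of the length trend nor that of the share of endothelial cells in this difference was tested. The ribosomal share of counts was 1.20% ± 0.155 in MTX-treated and 1.05% ± 0.0796 in control libraries (SD, n = 10 and 5, two-sided exact permutation p = 0.0726). Of 30 pericentral hepatocyte genes Cyp2c29 and Cyp7a1 rose and the glutamate transporter Slc1a2 fell (-0.83 ± 0.19, adjusted p = 0.0286, lost without control 1, 3 or 5, up to 0.0865), and of 30 periportal genes Tat rose. Over all genes 1.34% rose and 1.19% fell. Of 28 drug transporters, 23 sex-biased and 13 mitochondrially encoded genes edgeR and limma-voom called none, DESeq2 called 1, 2 and 0, and 4, 7 and 0 had an unadjusted p under 0.05. Lpl, lipoprotein lipase, was the single call of 28 apolipoprotein and lipase genes (0.65 ± 0.13, adjusted p = 0.0186, lost without control 1 or 3, up to 0.0558).

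**Figure D5:**
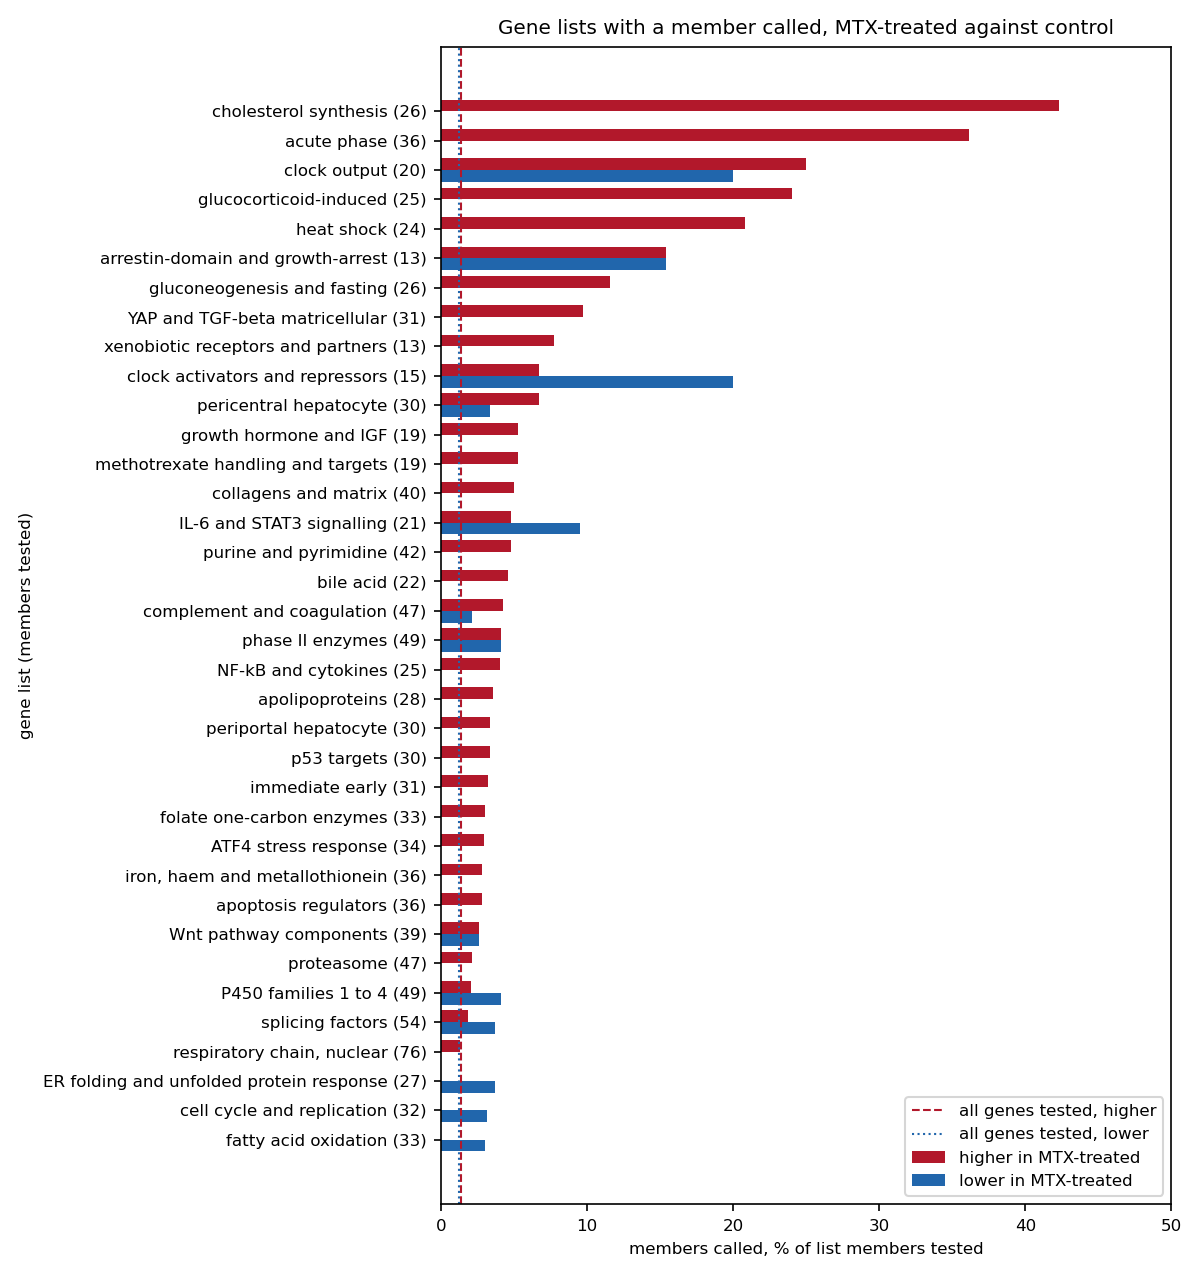
Members called higher (red) or lower (blue) in MTX-treated livers, as a share of the members tested (horizontal axis, %), for each gene list with a call (vertical axis, number tested in brackets). Dashed and dotted lines give the shares over all genes tested, 1.34% higher and 1.19% lower, and cholesterol synthesis (11 of 26) and acute phase (13 of 36) lie farthest above them.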

How the data were processed

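Whole-liver RNA was sequenced after mRNA library preparation with a SMARTer kit, per the labels' protocols. The authors deposited raw counts per Ensembl gene, 1 column per library, with gene lengths. The genome build was GRCm38 (mm10) per the submitters' processing notes, and no source used here names the aligner, counter, strand setting or annotation release. Of 54532 genes, 14219 passed edgeR's expression filter. Counts were scaled by TMM and fitted by edgeR 4.0.16 (R 4.3.3) with a quasi-likelihood test over all 15 libraries with 3 group means (12 residual degrees of freedom), Benjamini-Hochberg adjustment over all genes and a threshold of 0.05. The pooled contrast was the average of MTX and MTX+nitrate minus control. Intervals are 95%.

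Alternatives were median-of-ratios scaling, library totals, DESeq2 1.42.0, limma-voom 3.58.1, other filters, a replicate block, trends on transcript length and GC content, 1 mean for the 10 libraries, stricter thresholds, and leaving out each library. Named genes were the 12 largest non-overlapping changes per direction, up to 4 calls per list, preset genes, the clearest differences and likenesses between the MTX groups, calls made by pooling alone, and the 8 most abundant calls. The groups, lists and named genes were chosen with earlier results of these data known. In counts simulated on these libraries with known changes, the pooled test recovered 51 of 100 genes changed 1.5-fold and 79 of 100 changed 2-fold, with 5 false calls among 13999 genes. The changes were placed only in genes with a mean of at least 1 CPM. Simulated counts were drawn independently, with no library that deviated as a whole, so they do not cover the dependence of calls on single libraries. All 30 pairs of libraries within groups differed by more than sampling noise, with a variance ratio of 21.8 at the lowest. Promoters came from RefSeq (GRCm38.p6). A few genes that this rule names are not reported here.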

Additional observations from a re-analysis of the deposited data

Results flagged for a closer look

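A single library stood far from the other 4 of its group in 31 of 372 groups of 5 examined, where its gap to the nearest library exceeded 0.71 of the group's range. Chance flags about 1 in 20 groups, or 18.6 here. MTX library 5 and control library 1 had 6 such values each, MTX+nitrate library 4 had 5 and MTX library 3 had 4.

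In control library 1 these were Nr1d2 (160 CPM), Per3 (38.9 CPM), Alas1 (85.7 CPM), Gstt2 (59.1 CPM) and Rps3a3 (34.4 CPM), and the share of counts in the 10 most abundant genes (17%). In MTX library 5 they were Dhcr7 (135 CPM), Sp4 (6.29 CPM), F3 (5.39 CPM), S100pbp (24.1 CPM), Prpf18 (45.1 CPM) and the correlation of expression with gene length (-0.00549). MTX+nitrate library 4 stood apart for Lrg1 (808 CPM), Nr1d1 (42.2 CPM), Cyp2c29 (3400 CPM), Dnajb1 (47.4 CPM) and Bag3 (54.0 CPM). MTX library 3 did so for Dbp (5.07 CPM), Gstt2 (54.0 CPM), Zfp941 (1.46 CPM) and the share of long non-coding RNA counts (0.43%).

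The other libraries contributed 10 values. These were Saa1 (767 CPM) and Saa3 (27.9 CPM) in MTX+nitrate 3, Per1 (13.9 CPM) and Slc1a2 (23.4 CPM) in MTX+nitrate 1, Per3 (1.38 CPM) in MTX+nitrate 2 and Insig2 (474 CPM) in MTX+nitrate 5. MTX 1 had the haemoglobin share of counts (0.00888%). Control 2 had Ppard (27.8 CPM) and Irs2 (65.4 CPM), and control 3 had Ces2c (23.5 CPM).

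The response over control also differed between the MTX groups, as an adjusted p under 0.05 for MTX+nitrate minus MTX in edgeR's quasi-likelihood test, in 25 of the named genes. Of these, 15 were higher with nitrate, on the log2 scale by 2.89 for Noct, 2.68 for Per1, 2.09 for Cyp7a1, 1.93 for Sik1, 1.80 for Rasgef1b, 1.61 for Sgk1, 1.25 for Ctgf, 1.23 for Tnfrsf1b, 1.03 for Fzd6, 1.02 for Tsc22d3, 0.76 for Skil, 0.76 for Sp4, 0.73 for Pou2f1, 0.66 for Plekha6 and 0.49 for Srsf5. The 10 lower with nitrate had differences of -2.48 for Arrdc3, -1.89 for Spp1, -1.70 for Lcn2, -0.97 for Pim1, -0.76 for Cyp2c29, -0.69 for Hpx, -0.65 for Hp, -0.55 for Orm1, -0.51 for Cyp3a25 and -0.40 for Endog.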

How the results depend on the processing

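Against 359 genes, the pooled comparison called 873 with DESeq2, 180 with 1 mean for the 10 libraries, 27 at an adjusted p under 0.01 and 93 with at least 1 on the log2 scale. MTX against control (521 genes) gave 803 with library totals alone, 1141 with DESeq2 and 330 after length and GC correction, and MTX+nitrate against control (342) gave 752 with DESeq2 and 209 after that correction. The 49 genes differing between the MTX groups became 120 and 26 in the same fits. Scaling by library totals was added after the data were seen. The cause of these changes was not tested.

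With a replicate block the counts were 148 for the pooled comparison, 142 for MTX, 157 for MTX+nitrate and 16 for the difference. The replicate numbers did not pair the libraries: correlations of deviations between same-numbered libraries ran from -0.194 to 0.0636, and 2 of 15 libraries correlated best with their own number.

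Leaving out 1 library gave 72 to 724 genes in the pooled comparison, 86 to 995 for MTX, 99 to 455 for MTX+nitrate, with 187 the highest of those more than 1.5 times off, 15 to 75 for the difference, and 115 to 269 genes without overlap, of which 169 and over were more than 1.5 times the 109 found with all libraries.

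No named gene changed direction: of 2758 values for 115 genes under the alternatives, 2106 stayed on the same side of the threshold, 651 lost it, and Spp1 gained it without MTX library 3. The median 95% interval of ± 0.294 on the log2 scale limits what these 15 libraries can show.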

Other observations

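Zinc finger genes whose symbols start with Zfp were grouped after several of them were seen among the decreases. Of 325 tested, 8 fell and 4 rose at an adjusted p under 0.05 (edgeR), or 2.46% and 1.23%, beside 1.19% and 1.34% of all genes tested. Their median log2 change was -0.0896, with -0.0538 for MTX+nitrate and -0.114 for MTX over the shared controls, beside 0.00591 over all genes. Their median gene length was 4677 bases, beside 4053 bases for all genes tested. The group was chosen after its values were seen, and no test was made on it.

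Immediate early genes, which cells switch on within minutes of a stimulus, had a median log2 change of 0.385 over 31 genes tested, with 25 positive estimates. Ier5 was the single call (0.62 ± 0.15, adjusted p = 0.0367), at 6.71 to 10.2 CPM in MTX-treated and 3.89 to 6.65 CPM in control libraries, and 9 of the 15 fits that left out a library lost it.

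Of 47 proteasome genes 41 had a positive estimate and Psmb10, an immunoproteasome subunit, was called (0.34 ± 0.08, adjusted p = 0.0439), a call that 12 of the 15 fits lost. Of 76 nuclear respiratory chain genes 61 were positive and Atp5g1, a subunit of ATP synthase, was called (0.31 ± 0.08, adjusted p = 0.0457), lost in 13 of the 15 fits. In the direct contrast 10 of 47 proteasome and 19 of 76 respiratory chain genes were lower in MTX+nitrate than in MTX, beside 1.94% of all genes. The part of the trend with transcript length in these differences was not tested. Among 54 splicing factors Sf3b4 rose (0.53 ± 0.13, adjusted p = 0.0459) and Srsf5 (-0.40 ± 0.10, adjusted p = 0.0439) and Prpf18 (-0.32 ± 0.08, adjusted p = 0.0412) fell, lost in 12, 11 and 12 of the 15 fits. Over all genes 1.34% rose and 1.19% fell.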
